A study of Homo sapiens with 12 samples.

Results

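Untreated cells of the human melanoma line MALME-3M were compared with untreated cells of the human melanoma line SK-MEL-5, gene by gene. The comparison used the gene counts of all libraries labelled as not treated, 3 of MALME-3M and 3 of SK-MEL-5, which are 6 of the 12 libraries of the series. Both lines are established lines grown from melanoma metastases, and the labels give each the genotype WT. The other 6 libraries came from the same lines after 24 h of interferon gamma (IFN-γ), at 200 ng/mL in MALME-3M and 150 ng/mL in SK-MEL-5. MALME-3M was grown in Iscove's medium with 20% fetal bovine serum, and SK-MEL-5 in Eagle's minimum essential medium with 10% serum, pyruvate and added glutamine. Line and medium therefore cannot be told apart in any value below. Cells were seeded in triplicate wells of a plate, and nothing says that the wells came from separate cultures. Replicate numbers below were given in accession order and only name the libraries. The p-values therefore rest on differences among wells, some of which may only be technical.

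Gene counts totalled 16317188 to 18812341 in the MALME-3M libraries and 15886322 to 22921184 in the SK-MEL-5 libraries. A level is given as counts per 1000000 gene counts (CPM), as the mean ± SD of 3 libraries or library by library. A difference is given as the log2 fold change ± SE of MALME-3M minus SK-MEL-5, so a positive value is higher in MALME-3M. A gene is called when its Benjamini-Hochberg adjusted p in edgeR's quasi-likelihood test is below 0.05 over the 15810 genes tested. CPM do not take gene length into account, so levels are compared between lines and not between genes. In bulk RNA, fewer cells of a kind and less RNA per cell cannot be told apart. Where a line has 0 counts of a gene, the fold is a lower bound computed against 3 counts over its 3 libraries, which is 0.0572 CPM in MALME-3M and 0.0518 CPM in SK-MEL-5. Where it has 1 to 3 counts, the ratio of levels is given with its 95% Clopper-Pearson interval, which covers counting error only.

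Melanocytes arise from the neural crest. Their identity rests on the transcription factors SOX10, PAX3 and MITF, and MITF in turn switches on the genes of the melanosome, the organelle in which the enzymes TYR, TYRP1 and DCT make melanin on a scaffold of PMEL. Melanomas keep this programme to different degrees, and lines that have lost it often express AXL, EGFR and matrix genes instead.

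The difference between the lines was broad. Of the genes tested, 5459 were called higher in MALME-3M, which is 34.5% of all genes tested, and 5877 were called lower, which is 37.2%. At least 2-fold differences were called for 2639 genes higher (16.7%) and 2608 lower (16.5%). The CPM of the 3 and 3 libraries did not overlap for 11666 genes, or 73.8%. Any count of gene list members below has to be read against these shares. The median gene differed by -0.02 on the log2 scale and by 0.62 in absolute size, and 631 genes were called at least 16-fold higher and 839 at least 16-fold lower. Across genes, log2 CPM correlated at r = 0.988 to 0.99 between libraries of a line and at 0.816 to 0.818 between lines, where genes are not independent replicates.

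**Figure D1:**
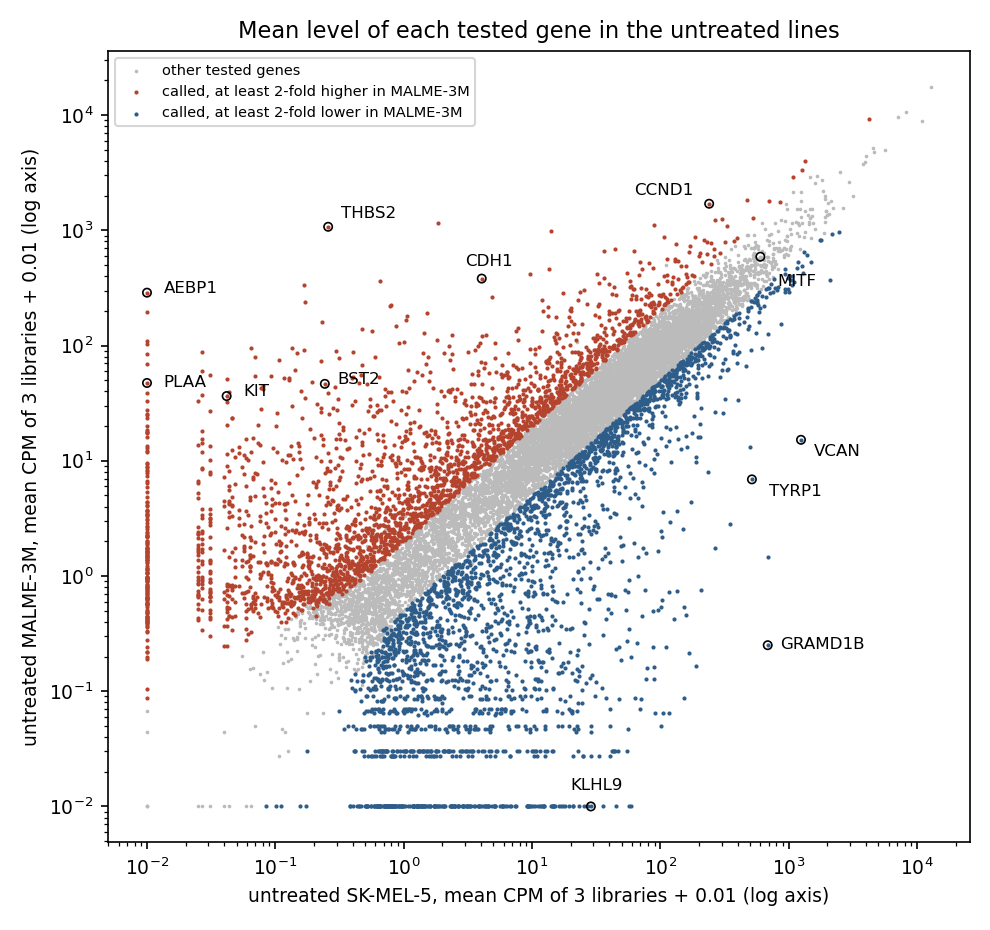
Mean CPM of each of the 15810 tested genes in untreated SK-MEL-5 (x axis) and untreated MALME-3M (y axis), both as CPM + 0.01 on log axes, where each point is a gene and colour marks called differences of at least 2-fold. MITF lies on the diagonal at 600.9 and 589.6 CPM, whereas AEBP1 and PLAA have no count in SK-MEL-5 and KLHL9 has none in MALME-3M.

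The core lineage factors MITF, SOX10 and PAX3 did not pass the test, whereas most pigment genes did. MITF (chr3:69739435-69968337, GRCh38) stood at 561, 597 and 611 CPM in MALME-3M and at 626, 614 and 562 CPM in SK-MEL-5. These ranges overlap, and the log2 fold change was -0.03 ± 0.06 (adjusted p = 0.696). In the transcript estimated counts, an alternative that holds part of the reads, MITF was instead called higher in MALME-3M, by 0.53. SOX10 was at 276.7 ± 16.9 CPM in MALME-3M and 270.4 ± 14.3 CPM in SK-MEL-5 (0.03 ± 0.05), and PAX3 at 85.6 ± 3.3 and 85.5 ± 6.18 CPM (0.00 ± 0.06). Neither was called.

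Single other regulators of the lineage differed. Of 18 tested members of the regulator list, 5 were called higher (27.8%) and 8 lower (44.4%). Over all genes tested the shares were 34.5% and 37.2%. The list had a median of -0.03 against -0.02 over all genes tested. SOX9, a neural crest factor whose level often opposes that of SOX10, was at 0.301, 0.0603 and 0.0521 CPM in MALME-3M and at 6.3, 6.46 and 6.79 CPM in SK-MEL-5. Its log2 fold change was -5.54 ± 0.38, and -6.71 without MALME-3M replicate 1, which held most of its 7 counts there. ZEB1, a repressor of epithelial genes, was at 4.75, 4.34 and 6.56 CPM against 48.0, 46.1 and 47.6 CPM (-3.17 ± 0.14). SOX6 was lower in MALME-3M as well, at 125 ± 8.13 against 393 ± 27.0 CPM. In the other direction, LEF1, a factor that partners β-catenin, was at 343 ± 9.65 CPM in MALME-3M and 124 ± 6.58 CPM in SK-MEL-5 (1.47 ± 0.05). TFEB, which drives lysosomal genes, was at 5.80 against 1.25 CPM (2.23 ± 0.29).

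Genes of melanin synthesis went in opposite directions. Of 16 tested members of the pigment list, 6 were called higher and 9 lower, 1 of them at least 2-fold higher and 6 at least 2-fold lower, with a median of -0.81. TYRP1, an enzyme that acts late in the synthesis of brown-black melanin, was at 7.16, 7.29 and 6.19 CPM in MALME-3M and at 518, 520 and 512 CPM in SK-MEL-5. The groups are far apart, with a log2 fold change of -6.23 ± 0.09 (adjusted p = 2.94e-20). DCT, which converts dopachrome, was at 985, 959.6 and 976 CPM against 2467, 2486 and 2470.0 CPM (-1.35 ± 0.06). TYR, the rate-limiting enzyme, was at 455, 425 and 434 CPM in MALME-3M, above the 279.8, 258 and 261 CPM of SK-MEL-5 (0.72 ± 0.05). PMEL, the fibril protein of the melanosome, was at 2914 ± 31.4 against 1464 ± 92.6 CPM (0.99 ± 0.04). MLANA, the antigen MART-1, was not called (449.7 ± 12.1 and 471 ± 41.2 CPM, -0.07 ± 0.05). OCA2, a channel of the melanosome membrane, was lower at 114 ± 1.92 against 264 ± 7.91 CPM.

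KIT, the receptor for stem cell factor on which melanocytes depend, was nearly absent from the counts of 1 line. It was at 38.7, 34.8 and 35.7 CPM in MALME-3M. SK-MEL-5 had 2 counts in 3 libraries, which makes the level 1053 times higher in MALME-3M (291 to 8702).

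The proximal promoters of TYRP1, TYR and GPNMB are shown because they carry the MITF-type E-box, while their genes lie on either side of the line difference. Each run gives the 250 bases before the RefSeq start (GRCh38.p14), and capitals mark TCATGTG or its reverse complement CACATGA.
TYRP1 (chr9:12693135-12693384, plus strand): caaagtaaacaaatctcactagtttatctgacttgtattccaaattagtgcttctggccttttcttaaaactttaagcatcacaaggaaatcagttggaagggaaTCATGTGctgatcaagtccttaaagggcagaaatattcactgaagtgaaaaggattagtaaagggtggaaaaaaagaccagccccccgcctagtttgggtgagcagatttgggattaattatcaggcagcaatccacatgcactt
TYR (chr11:89177625-89177874, plus strand): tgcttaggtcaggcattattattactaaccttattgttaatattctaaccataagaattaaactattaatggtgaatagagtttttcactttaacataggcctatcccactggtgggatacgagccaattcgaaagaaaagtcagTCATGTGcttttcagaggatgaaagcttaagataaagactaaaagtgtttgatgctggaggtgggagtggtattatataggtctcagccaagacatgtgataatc
GPNMB (chr7:23246525-23246774, plus strand): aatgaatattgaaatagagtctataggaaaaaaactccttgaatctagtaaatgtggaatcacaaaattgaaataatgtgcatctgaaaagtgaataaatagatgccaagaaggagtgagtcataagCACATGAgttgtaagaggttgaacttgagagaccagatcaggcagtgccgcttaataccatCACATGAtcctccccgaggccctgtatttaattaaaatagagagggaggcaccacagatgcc
The first base of the motif lies at -105 in TYR and at -145 in TYRP1, counted from the base before the RefSeq start as -1. GPNMB carries it at -123 and -62. The GENCODE 29 genes begin farther upstream, at 89177452 for TYR, 12685439 for TYRP1 and 23235967 for GPNMB, so these positions hold for the RefSeq starts alone. Over windows of 250 bases before and 50 after the start, TCATGTG on either strand was found in 5 of 15 pigment genes with an entry (33.3%), in 2.97% of all 27195 promoters and in 1.74% of the 10317 promoters of tested genes. The 5 genes are TYR, TYRP1, GPNMB, GPR143 and SLC24A5. Of these, TYRP1 was called lower in MALME-3M and the other 4 higher. The related letters CACGTG, which do not overlap TCATGTG, were found in 0 of the 15, in 7.45% of all promoters and in 10.2% of those of tested genes. A match is a description of letters and not evidence of binding.

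**Figure D2:**
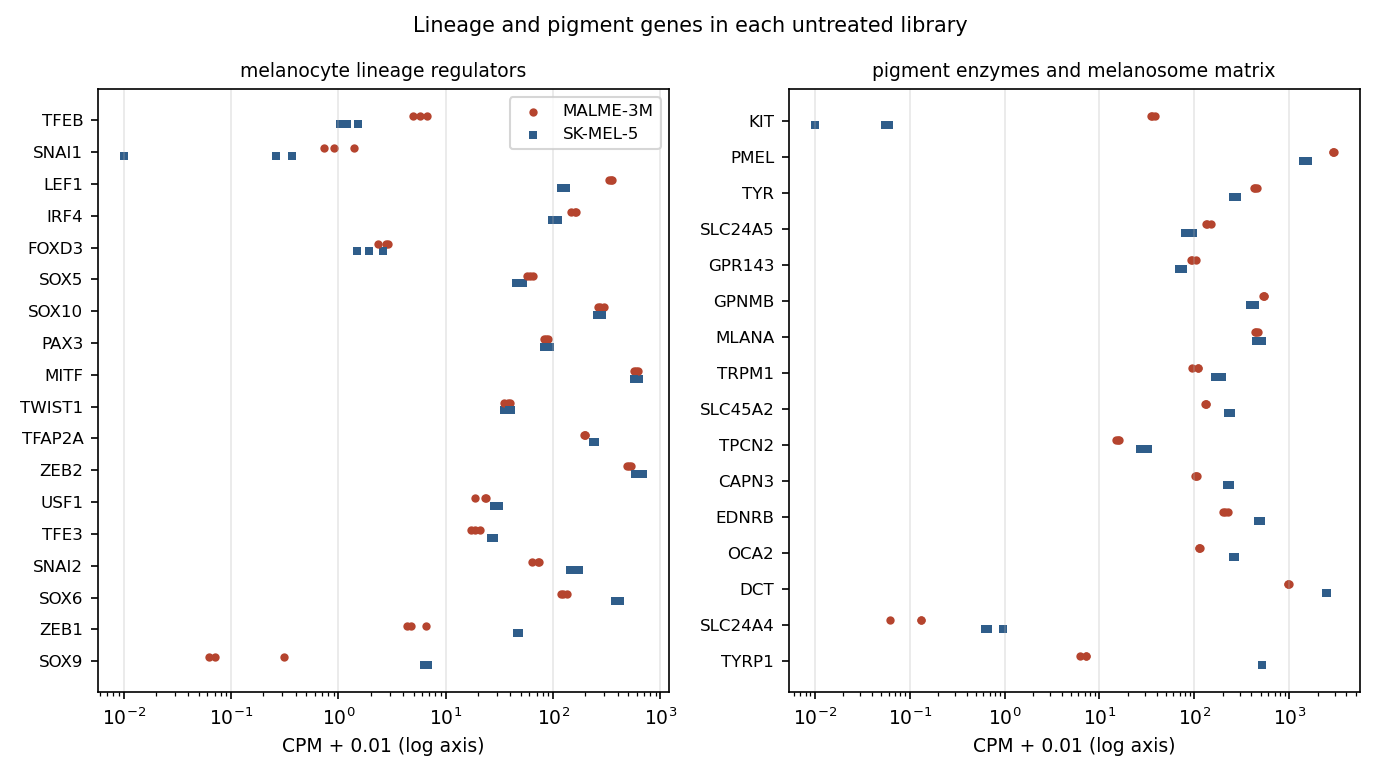
CPM + 0.01 (log axis) of the tested lineage regulators (left) and pigment genes (right) in each of the 3 MALME-3M libraries (circles) and 3 SK-MEL-5 libraries (squares), ordered by the difference. MITF, SOX10 and PAX3 overlap between the lines, while SOX9, ZEB1, TYRP1 and KIT are separated by wide gaps.

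Single genes that carry melanosomes through the cell differed in either direction. MLPH, which links RAB27A to myosin, was at 564 ± 9.91 CPM in MALME-3M and 113 ± 3.61 CPM in SK-MEL-5 (2.31 ± 0.05), and RAB27A itself at 194 ± 2.86 against 67.0 ± 0.747 CPM (1.53 ± 0.05). HPS5, a subunit of a complex that builds lysosome-related organelles, was lower at 84.0 ± 0.622 against 395 ± 12.6 CPM (-2.23 ± 0.05). Its partner HPS3 was higher, at 269 against 65.0 CPM. In all, 9 of 21 tested members were called higher (42.9%) and 7 lower (33.3%). These lie near the shares of all genes tested, 34.5% and 37.2%.

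Markers of a neural crest or dedifferentiated state did not fall to 1 side. Of 13 neural crest genes, 5 were called higher and 7 lower. Of 27 dedifferentiation and invasion genes, 10 were called higher and 12 lower, with 9 and 8 at least 2-fold, and a median of 0.11. EGFR was at 0.541, 0.362 and 0.312 CPM in MALME-3M and at 13.8, 14.7 and 16.9 CPM in SK-MEL-5 (-5.22 ± 0.23). The cytokines IL6 (0.696 against 12.2 CPM, -4.10 ± 0.18) and CXCL8 (0.27 against 6.56 CPM, -4.58 ± 0.35) were lower in MALME-3M too. The mesenchymal cadherin CDH2 was instead higher in MALME-3M, at 54.1, 58.1 and 52.7 CPM against 4.33, 3.79 and 3.3 CPM (3.86 ± 0.10). This call was lost in the transcript estimated counts, where CDH2 stood at 1.47 (adjusted p = 0.184). NT5E, the ecto-enzyme CD73, was at 94.0 ± 0.408 against 9.63 ± 0.601 CPM (3.29 ± 0.08). AXL was low in both lines, with 71 counts in MALME-3M and 1 in SK-MEL-5, a ratio of 78.4 (13.6 to 3140.0). NGFR, the marker of the neural crest state, was near the limit of detection at 0.543 and 0.201 CPM, and its call (1.36 ± 0.53) was lost in 4 of the 6 fits that left out a library, with SK-MEL-5 replicate 1 or 3 or MALME-3M replicate 1 or 2 absent (1.31, 1.03, 1.19 and 1.27).

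Cancer-testis antigens were higher in SK-MEL-5 with few exceptions. These are germ-cell genes, many on the X chromosome, that tumours switch on. Of 32 list members in the tables, 19 were tested, and 17 of these were called lower in MALME-3M, 16 at least 2-fold, with a median of -3.63. TEX15 had 3 counts in MALME-3M and 6131 in SK-MEL-5, where its level was 1850.0 times higher (633 to 8975). MAGEB2 had no count in MALME-3M and was at 11.1 CPM in SK-MEL-5, at least 195-fold higher. GAGE2A was at least 88.1-fold higher there. PRAME, the antigen most widely expressed in melanoma, went the other way (610.2, 609.9 and 599 CPM in MALME-3M against 399, 409 and 392 CPM, 0.60 ± 0.05). MAGE and GAGE copies are nearly identical, so reads may be split among them.

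Cell adhesion genes differed in both directions. CDH1, the epithelial cadherin with which melanocytes bind keratinocytes (chr16:68737225-68835548), was at 381, 381 and 381 CPM in MALME-3M and at 1.27, 1.34 and 9.53 CPM in SK-MEL-5. SK-MEL-5 replicate 3 stands apart with 188 counts, where the other libraries had 20 and 30. The log2 fold change was 6.53 ± 0.37, and 8.17 without that library. In the transcript estimated counts the same 3 libraries had 18, 16 and 12.7. Of 12 tested cadherins and protocadherins, 5 were called higher and 7 lower. PCDH17, a protocadherin, had no count in MALME-3M and was at 11.8 CPM in SK-MEL-5, at least 206-fold higher.

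Integrins, the receptors for matrix, were called higher for 10 of 15 members and lower for 3. ITGA3, a laminin receptor chain, was at 296.5, 289.7 and 271 CPM in MALME-3M and at 18.2, 16.8 and 16.8 CPM in SK-MEL-5 (4.05 ± 0.06). ITGA4 was at 154 ± 8.04 against 24.6 ± 1.71 CPM (2.64 ± 0.06), and ITGAX, usually a leukocyte chain, at 46.5 against 0.506 CPM (6.43 ± 0.18). ITGA1, a collagen receptor chain, had 1 count in MALME-3M and 2534 in SK-MEL-5, where its level was 2294 times higher (411 to 90660.0). Immunoglobulin-type adhesion molecules leaned the other way, with 5 of 18 called higher and 12 lower. JAM3, a junction molecule, was at 1.64 ± 0.0717 against 96.1 ± 1.33 CPM (-5.87 ± 0.10), whereas L1CAM was higher at 599.6 ± 5.27 against 199 ± 17.7 CPM (1.60 ± 0.05).

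RNA of the extracellular matrix came from different genes in the lines. Of 25 tested collagen chains, 18 were called higher in MALME-3M, 17 of them at least 2-fold, and 7 lower, with a median of 1.92. COL11A1, a fibrillar chain, was at 257, 235 and 225 CPM in MALME-3M and at 0.0636, 0.267 and 0.152 CPM in SK-MEL-5 (10.38 ± 0.18). COL6A2 went against the trend, at 1.10 against 22.7 CPM (-4.36 ± 0.16). THBS2, a matrix glycoprotein that inhibits vessel growth, was at 1066, 1087 and 1063 CPM in MALME-3M, while SK-MEL-5 had 15 counts in all. Its log2 fold change was 11.98 ± 0.11, and 12.57 without SK-MEL-5 replicate 2. NID1, a basement membrane linker, was at 225 against 0.783 CPM (8.17 ± 0.12), and CSPG4, the melanoma proteoglycan also called NG2, at 461 ± 18.5 against 13.6 ± 1.35 CPM (5.08 ± 0.08). VCAN, a large proteoglycan, was the counterpart in SK-MEL-5, at 17.6, 13.9 and 14.1 CPM in MALME-3M and 1198, 1290.0 and 1249 CPM there (-6.36 ± 0.08). FBLN1 followed it, at 0.210 against 19.8 CPM. Over the 41 matrix glycoproteins and proteoglycans, calls were even, with 19 higher and 18 lower. Of 33 proteases and inhibitors, 17 were called higher and 13 lower, among them PLAUR, the urokinase receptor (32.8 against 0.818 CPM, 5.27 ± 0.19), and ADAM22 (0.210 against 13.5 CPM, -5.97 ± 0.23).

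**Figure D3:**
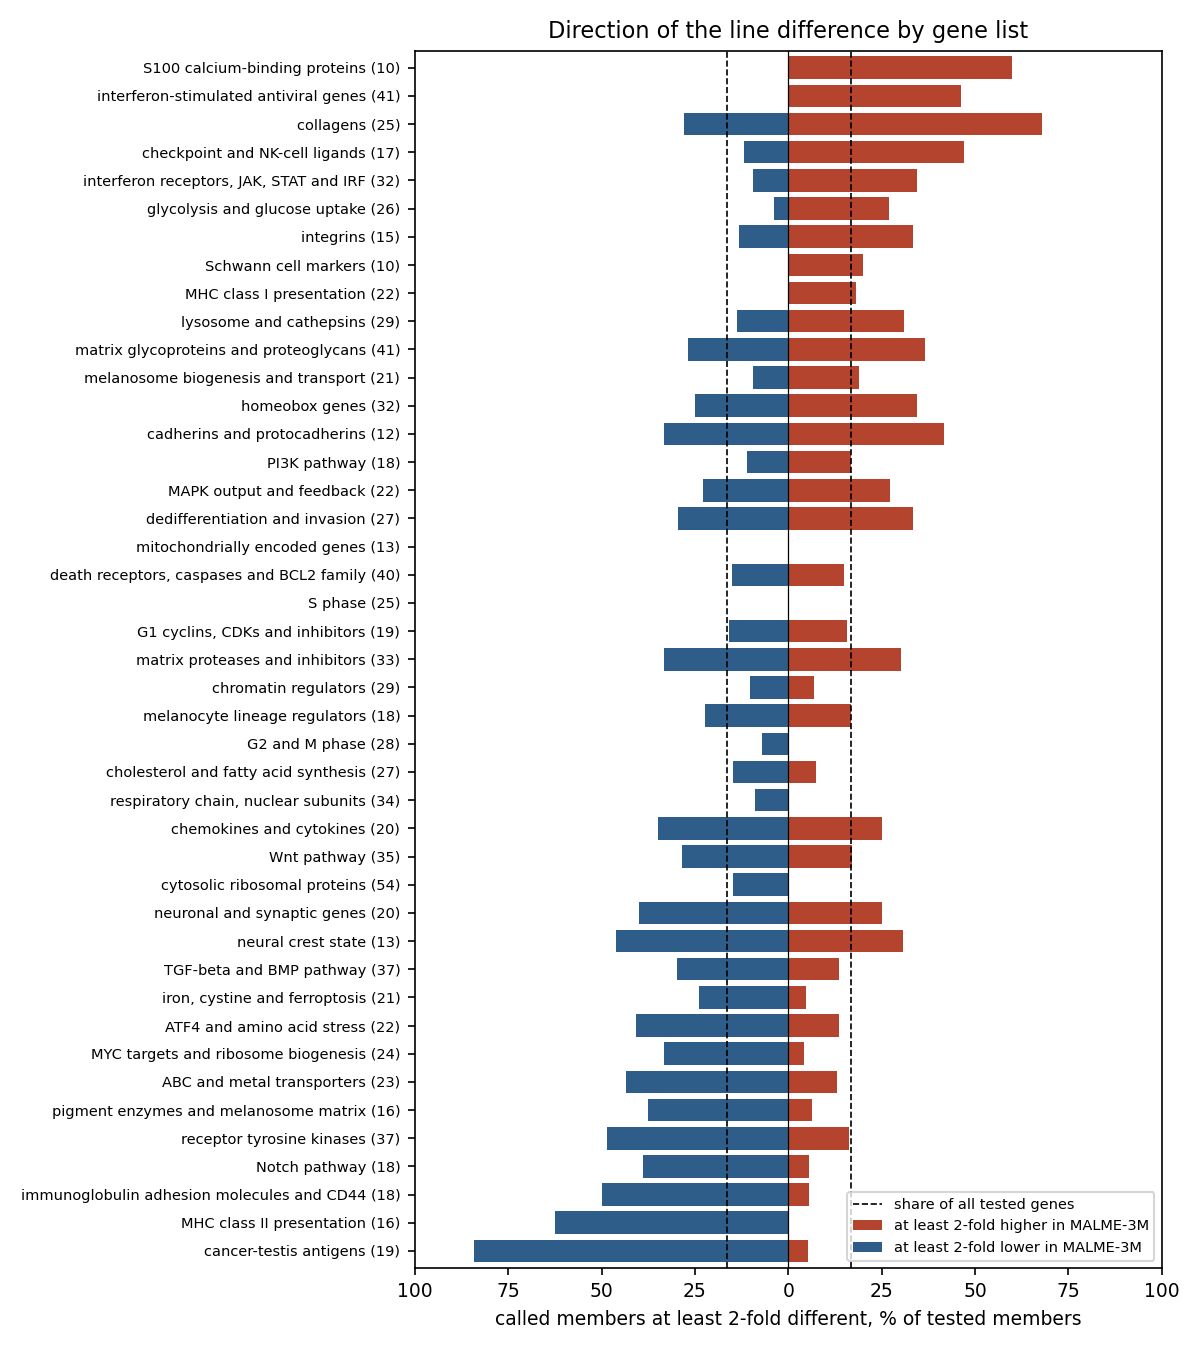
Share of the tested members of gene lists with at least 10 tested members (number in brackets) that were called at least 2-fold higher (right, red) or lower (left, blue) in MALME-3M. Dashed lines mark the shares of all tested genes, 16.7% and 16.5%; cancer-testis antigens and MHC class II genes extend farthest to the left, and collagens and S100 proteins farthest to the right.

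Receptor tyrosine kinases were more often lower in MALME-3M, with 11 of 37 called higher, 21 lower and a median of -0.85. Ephrin receptors led the lower side. EPHA7 (chr6:93240020-93419547) had no count in MALME-3M and was at 40.6, 45.5 and 49.3 CPM in SK-MEL-5, at least 789-fold higher. EPHA5 had 2 counts in MALME-3M and 2362 in SK-MEL-5, a ratio of 1069 (295.7 to 8835). EPHB3, of the same family, was instead higher in MALME-3M, at 8.38 against 1.355 CPM (2.605 ± 0.206). FGFR2 was at 3.96 CPM in SK-MEL-5 only, at least 69.2-fold higher. MET, the receptor for hepatocyte growth factor, was at 154, 154 and 156 CPM against 412, 408 and 407 CPM (-1.40 ± 0.04). ERBB3, the neuregulin receptor of the melanocyte lineage, was higher in MALME-3M, at 427 ± 15.7 against 232 ± 2.91 CPM (0.88 ± 0.04).

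Output genes of the MAPK pathway, which growth factor receptors and BRAF feed, were called higher for 12 of 22 members and lower for 7. CCND1, the D-type cyclin that starts the cell cycle (chr11:69641087-69654474), was at 1662, 1711 and 1724 CPM in MALME-3M and at 249, 243 and 228 CPM in SK-MEL-5 (2.82 ± 0.05). DUSP5, a nuclear phosphatase that switches ERK off, was at 26.5 ± 1.62 against 4.48 ± 0.81 CPM (2.57 ± 0.14). The feedback inhibitors SPRY1 (13.5 against 44.9 CPM, -1.73 ± 0.08) and SPRY4 (63.3 against 147 CPM, -1.22 ± 0.07) were lower in the same line. LIF, a cytokine of the IL6 family, was higher at 119 ± 6.31 against 14.9 ± 1.40 CPM (3.00 ± 0.11).

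Other signalling pathways were mixed. In the Wnt pathway 12 of 35 members were called higher and 15 lower. Its secreted inhibitor SFRP1 was at 202 against 19.8 CPM (3.36 ± 0.08). In the TGF-β and BMP pathway 13 of 37 were called higher and 16 lower. TGFB1, the ligand, was at 2.23, 2.65 and 2.29 CPM in MALME-3M and 32.6, 31.5 and 29.9 CPM in SK-MEL-5 (-3.71 ± 0.19). LTBP3, which holds latent TGF-β in the matrix, was the reverse, at 66.0, 63.4 and 55.4 CPM against 1.15, 1.16 and 0.912 CPM (5.84 ± 0.18). The Notch list had 5 of 18 called higher and 11 lower, with the receptor NOTCH2 at 343 against 158 CPM (1.12 ± 0.05) and NOTCH3 at 0.130 against 3.24 CPM (-4.54 ± 0.43). In the PI3K list 6 of 18 were called higher and 9 lower. The kinase subunit PIK3CD was higher in MALME-3M, at 150.2 against 34.7 CPM (2.11 ± 0.06).

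Few proliferation genes differed by 2-fold. None of the 25 S phase genes and 2 of the 28 G2 and M phase genes were called and at least 2-fold different. MKI67, a marker of cycling cells, was at 1522 CPM in MALME-3M and 1232 CPM in SK-MEL-5 (0.30 ± 0.04). The exceptions were BIRC5, the mitotic survivin (93.4 ± 4.54 against 283 ± 32.3 CPM, -1.60 ± 0.07), and PLK1, a mitotic kinase (44.9 ± 1.33 against 102 ± 5.37 CPM, -1.19 ± 0.06). Among G1 regulators, CDK6 was not called (0.09 ± 0.05), CDK4 was lower in MALME-3M (99.3 against 142 CPM, -0.51 ± 0.06), and CCND2 had 3 counts in MALME-3M and 307 in SK-MEL-5 (92.7 times higher there, 31.4 to 452), the reverse of CCND1.

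The tumour suppressor CDKN2A on 9p21 had no count in any of the 6 libraries, and CDKN2B and DMRTA1 had none either. MTAP, a neighbour often deleted with CDKN2A, had 1 count per line. CDKN2B-AS1, which lies antisense to CDKN2B, had 17 counts in MALME-3M and 5 in SK-MEL-5. The lines differed in how far the stretch without counts reached. On the telomeric side, KLHL9 (chr9:21329671-21335380) had no count in MALME-3M and 28.7, 28.99 and 28.5 CPM in SK-MEL-5, at least 502-fold higher. The transcript estimated counts gave MALME-3M 8 counts of KLHL9 and a smaller difference, of -6.86. On the centromeric side, 7 genes from ELAVL2 to C9orf72 (chr9:23690104-27573866) had 0 or 1 count in SK-MEL-5 and stood at 4.37 to 47.3 CPM in MALME-3M. The other genes annotated between them had 16 or fewer counts in either line. PLAA, a regulator of ubiquitin-dependent turnover, was at 45.9, 47.2 and 48.7 CPM there, at least 913-fold higher than in SK-MEL-5, and CAAP1 at least 636-fold higher. FOCAD before this stretch and ACO1 and TOPORS after it were counted in both lines. Counts alone cannot tell a deleted gene from a silent one.

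**Figure D4:**
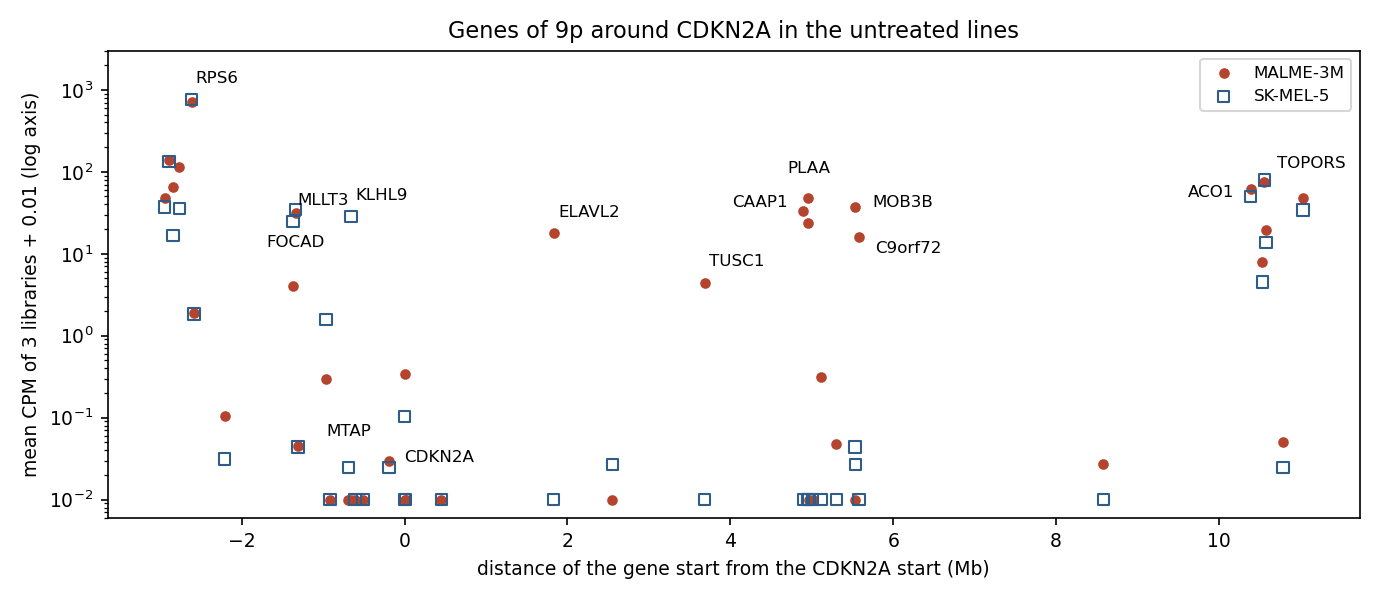
Mean CPM + 0.01 (log axis) of the annotated genes of 9p by the distance of their start from that of CDKN2A, with filled circles for MALME-3M and open squares for SK-MEL-5. KLHL9 is seen in SK-MEL-5 and not in MALME-3M, and the 7 genes from ELAVL2 to C9orf72 in MALME-3M, with at most 1 count in SK-MEL-5 for any of the 7.

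Without added interferon, MALME-3M carried more RNA of interferon-stimulated genes. Of 41 tested antiviral genes, 32 were called higher in MALME-3M, 19 at least 2-fold, and 2 lower, with a median of 0.89. Placing members without counts at their bound made it 0.87. BST2, which tethers budding virus to the cell surface, was at 48.5, 43.6 and 47.3 CPM in MALME-3M and at 0.318, 0.178 and 0.203 CPM in SK-MEL-5 (7.65 ± 0.12). IFI27 was at 9.74 ± 0.455 against 0.110 ± 0.0724 CPM (6.46 ± 0.21). LGALS3BP and IFI16, a DNA sensor, were the 2 called lower (-0.57 and -0.30), and the call of IFI16 was lost in the transcript estimated counts.

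The signalling chain above these genes leaned the same way. Of 32 receptors, JAKs, STATs and IRFs, 19 were called higher (59.4%) and 6 lower (18.8%), with a median of 0.26. Over all genes tested the shares were 34.5% and 37.2%. The receptor chains for IFN-γ, IFNGR1 (34.0 against 23.1 CPM, 0.56 ± 0.07) and IFNGR2 (0.26 ± 0.08), were higher in MALME-3M, and JAK1 (0.18 ± 0.06) and JAK2 (-0.21 ± 0.08) differed by less. The call of JAK1 was lost without SK-MEL-5 replicate 1 (0.14) or MALME-3M replicate 1 (0.11), and that of JAK2 without SK-MEL-5 replicate 3 (-0.17) or MALME-3M replicate 1 (-0.16). JAK2 was also not called with only the 6 untreated libraries fitted (-0.19, adjusted p = 0.0526). STAT5A was at 62.5 ± 5.05 against 2.41 ± 0.558 CPM (4.72 ± 0.12) and IRF5 at 21.5 against 1.20 CPM (4.12 ± 0.17), while STAT3 was lower at 92.6 against 217 CPM (-1.23 ± 0.05). IRF1, the primary IFN-γ response factor, was at 3.55, 2.83 and 2.45 CPM against 5.92, 4.76 and 4.46 CPM (-0.77 ± 0.15). In the transcript estimated counts it stood at -0.71, with an adjusted p of 0.0705.

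Antigen presentation split by class. Of 22 MHC class I presentation genes, 14 were called higher in MALME-3M and 1 lower, with a median of 0.58. HLA-C was at 216 ± 7.19 against 139.6 ± 8.55 CPM (0.63 ± 0.05). HLA-B was the 1 called lower, at 109.8, 108 and 104 CPM against 154, 153 and 143 CPM (-0.49 ± 0.04). HLA genes are polymorphic and alike, and in the transcript estimated counts HLA-B stood at -1.82. B2M, the shared light chain, had an adjusted p of 0.0502 (262 ± 9.09 and 244 ± 10.1 CPM, 0.10 ± 0.05) and was called in 10 of 14 alternatives. Of 16 MHC class II presentation genes, 11 were called lower, 10 at least 2-fold, and 2 higher, with a median of -1.66. Placing members without counts at their bound made it -1.43. HLA-DRA had 1 count in MALME-3M and 155 in SK-MEL-5 (3.37, 2.63 and 2.18 CPM), a ratio of 140.3 (24.8 to 5579). CD74, the class II chaperone, was instead higher in MALME-3M, at 26.5 ± 1.97 against 17.7 ± 2.95 CPM (0.58 ± 0.09). So was HLA-DMB (0.75), but not with only the 6 untreated libraries fitted (0.79, adjusted p = 0.0723), nor without SK-MEL-5 replicate 1 (0.58) or MALME-3M replicate 1 (0.43).

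**Figure D5:**
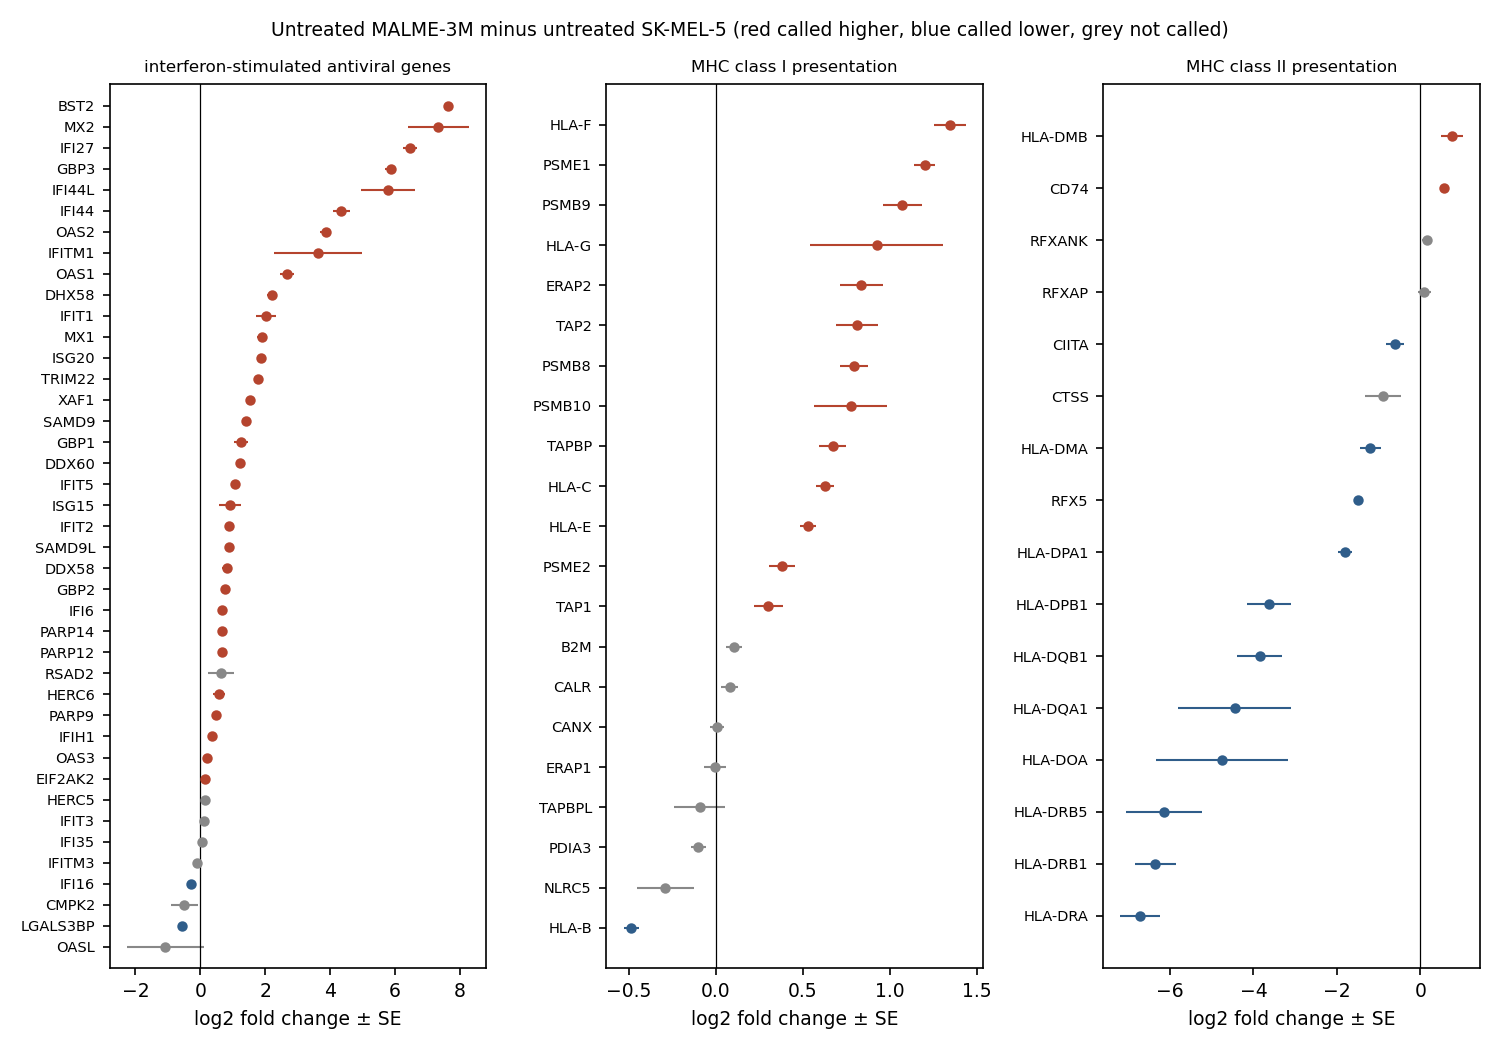
Log2 fold change ± SE of untreated MALME-3M minus untreated SK-MEL-5 for tested interferon-stimulated antiviral genes, MHC class I genes and MHC class II genes, each panel on its own axis. Antiviral and class I genes lie mostly to the right of 0, and class II genes mostly to the left, with IFI16, LGALS3BP, HLA-B, CD74 and HLA-DMB as the called exceptions.

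Ligands that lymphocytes read were more often higher in MALME-3M, with 10 of 17 checkpoint and NK-cell ligands called higher, 4 lower and a median of 1.25. CD274, the ligand PD-L1, was at 5.77, 7.47 and 7.03 CPM in MALME-3M and at 0.827, 0.801 and 0.507 CPM in SK-MEL-5 (3.24 ± 0.21). CD200, an inhibitory ligand for myeloid cells, was at 36.0 against 3.41 CPM (3.40 ± 0.15). PVR, which binds TIGIT, was lower at 27.7 against 62.1 CPM (-1.16 ± 0.07). Chemokines and cytokines were called higher for 5 of 20 and lower for 9. VEGFC, a lymphatic growth factor, had no count in MALME-3M and was at 12.1 CPM in SK-MEL-5, at least 211-fold higher. Among 40 genes of cell death, 15 were called higher and 16 lower. BIRC7, the melanoma inhibitor of apoptosis, was at 197, 183 and 166 CPM in MALME-3M and 1.59, 0.801 and 0.76 CPM in SK-MEL-5 (7.49 ± 0.16). TNFRSF10D, a decoy receptor for TRAIL, was at 12.98 CPM in MALME-3M and had no count in SK-MEL-5, at least 250.5-fold higher. MLKL, the executor of necroptosis, was at 4.42 against 16.6 CPM (-1.92 ± 0.13).

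Most ribosome genes were lower in MALME-3M. Of 54 cytosolic ribosomal protein genes, 42 were called lower and 5 higher, with a median of -0.32. Most of these differences were small. At least 2-fold lower were 8 of the 54 (14.8%), beside 16.5% of all genes tested, and 0 were at least 2-fold higher. Of 24 MYC target and ribosome biogenesis genes, 21 were called lower and 1 higher, with a median of -0.64. MYC itself was at 74.3, 66.9 and 68.0 CPM against 148, 159 and 151 CPM (-1.13 ± 0.06). RPL38 was at 303 ± 12.3 against 810.0 ± 12.8 CPM (-1.42 ± 0.05), and BOP1, a factor in large subunit assembly, at 26.6 against 104 CPM (-1.96 ± 0.06). The exception in the second list was ODC1, the first enzyme of polyamine synthesis (57.4 against 26.7 CPM, 1.10 ± 0.08). Ribosomal protein genes have many processed pseudogenes, and RPS14, called higher at 0.32, was called lower at -0.64 in the transcript estimated counts and not called without MALME-3M replicate 1 (0.21).

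Energy metabolism differed in single steps. PPARGC1A, the coactivator of mitochondrial biogenesis that MITF can drive, was at 51.2, 52.9 and 57.3 CPM in MALME-3M and 283, 297 and 296 CPM in SK-MEL-5 (-2.44 ± 0.09, and -1.43 in the transcript estimated counts). Of 34 nuclear respiratory chain genes, 8 were called higher and 16 lower, with a median of -0.15, and no mitochondrially encoded gene differed by 2-fold. Of 26 glycolysis genes, 15 were called higher and 8 lower. LDHA, which makes lactate, was at 307, 306 and 311 CPM against 969.8, 930.4 and 921 CPM (-1.61 ± 0.04). The lactate exporter SLC16A3 was the reverse, at 27.4 ± 1.67 against 0.638 ± 0.168 CPM (5.44 ± 0.16), and so was the enolase ENO2, at 201 ± 9.98 against 12.2 ± 0.486 CPM (4.04 ± 0.08).

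Lipid and stress genes held large single differences. DHCR7, the last enzyme of cholesterol synthesis, was at 0.601, 0.542 and 0.937 CPM in MALME-3M and 37.6, 40.2 and 39.1 CPM in SK-MEL-5 (-5.78 ± 0.18). FADS2, a fatty acid desaturase, was the reverse, at 56.5, 58.9 and 49.6 CPM against 1.84, 1.20 and 1.11 CPM (5.34 ± 0.15). Over the 27 genes of these pathways, 10 were called higher and 13 lower. Of 21 genes of iron handling and ferroptosis defence, 5 were called higher and 12 lower, led by the NRF2 targets GCLM (13.5 against 42.2 CPM) and NQO1 (427 ± 11.9 against 1288 ± 33.4 CPM, -1.59 ± 0.04). Of 22 ATF4 and amino acid stress genes, 4 were called higher and 14 lower. ATF3 was at 0.802 ± 0.213 against 14.3 ± 1.00 CPM (-4.15 ± 0.17), and PHGDH, the first enzyme of serine synthesis, was among those higher, at 90.8 against 37.0 CPM (1.29 ± 0.06). The medium and its serum share differ along with the lines, and their part in these values cannot be told apart.

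Lysosomal genes were called higher for 14 of 29 and lower for 10. CD68 was at 213 ± 2.64 against 20.0 ± 2.93 CPM (3.42 ± 0.09), and the protease CTSH at 319.5 ± 10.6 against 43.9 ± 1.73 CPM (2.87 ± 0.06). S100 calcium-binding proteins were called higher for 8 of 10 tested members. S100B, the serum marker of melanoma, was at 657, 622 and 660.3 CPM against 172, 173 and 158 CPM (1.95 ± 0.05), S100A6 at 1111 ± 112 against 89.2 ± 2.97 CPM (3.64 ± 0.07), and S100A4 at 24.9 CPM against no count, at least 481-fold higher. S100A11 was the 1 called lower (-0.44 ± 0.08).

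Developmental and neuronal genes were switched in both directions. Of 32 homeobox and patterning genes, 14 were called higher and 13 lower. HOXA10 was at 2.64 CPM in MALME-3M with no count in SK-MEL-5, at least 51.0-fold higher, whereas HOXD13 had 1 count in MALME-3M and 396 in SK-MEL-5, a ratio of 359 (63.98 to 14200.0). Of 20 neuronal and synaptic genes, 7 were called higher and 10 lower. NEFL, the light neurofilament chain, was at 0.120, 0.0603 and 0.0521 CPM in MALME-3M and 136, 157 and 161 CPM in SK-MEL-5 (-10.84 ± 0.16). STX1A, a syntaxin of the synaptic vesicle machinery, was higher at 53.1 against 6.56 CPM (3.02 ± 0.10). Among 29 chromatin regulators, 6 were called higher and 15 lower. SMARCA4, the BRG1 ATPase of the SWI/SNF remodeller and a partner of MITF, was at 433, 431 and 407 CPM in MALME-3M and 50.8, 52.7 and 60.1 CPM in SK-MEL-5 (2.96 ± 0.08). The demethylase KDM5B was lower, at 45.7 against 142 CPM (-1.64 ± 0.07).

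The 12 largest differences in each direction over all genes, some of them list members described above, were close to presence or absence. AEBP1, a collagen-binding protein of the matrix (chr7:44104361-44114562), was at 297, 281 and 284 CPM in MALME-3M with no count in SK-MEL-5, at least 5547-fold higher. TMSB4X, the actin-binding thymosin β4 found in most cells, was at 201, 194 and 196 CPM against no count, at least 3800-fold higher. TMSB4X has near-identical copies and the replication histones HIST1H1D, HIST1H3G and HIST1H4L have close relatives, so unique counting may misstate them. In the transcript estimated counts, SK-MEL-5 had 1 count of TMSB4X and none of AEBP1 or HIST1H1D. KIAA1755 and SLC17A9 also had 1 there. KIAA1755, TMEM163, SLC17A9, a vesicular nucleotide transporter, and MID2 were at 25.2 to 84.2 CPM in MALME-3M with no count in SK-MEL-5. On the other side, VOPP1 (chr7:55436056-55572988) was at 58.1, 59.8 and 58.6 CPM in SK-MEL-5 and WASF3, an actin regulator of cell movement, at 58.6, 56.8 and 56.2 CPM. Neither had a count in MALME-3M, so they were at least 1028-fold and 1000-fold higher in SK-MEL-5. GRAMD1B, a carrier of cholesterol between membranes, had 12 counts in MALME-3M and was at 687, 685 and 685 CPM in SK-MEL-5. The transcript estimated counts gave it a smaller difference, of -2.16 on the log2 scale, and leaving out MALME-3M replicate 1 or 3 gave -12.19 or -10.87 in place of -11.51. STXBP5L, FAM133A, CT45A10, FAM171A1, NPTXR, TSHZ3 and the unnamed locus RP11-129M6.1 had no count in MALME-3M and 18.1 to 35.5 CPM in SK-MEL-5.

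Genes at 3 or fewer counts in 1 line and at 5 CPM or more in the other numbered 82 for SK-MEL-5 and 143 for MALME-3M, with Y-linked genes and XIST left out. Of those with a position, 3 of 70 absent from SK-MEL-5 and 14 of 126 absent from MALME-3M lie on the X chromosome, or 4.29% and 11.1%, beside 3.6% of all tested genes. RefSeq promoters were found for 44 of those absent from SK-MEL-5 and 96 of those absent from MALME-3M. They held a median of 21 and 24 CpG in 300 bases, beside 26 over all tested genes with an entry. The quartiles overlapped widely, at 11.75 to 31.25, 13.75 to 34 and 18 to 34, and the difference was not tested.

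Differences also followed position on the chromosomes. Median log2 fold changes were lowest on chromosomes 8 (-0.53), 11 (-0.45) and 13 (-0.37) and highest on 21 (0.37), 14 (0.33) and 7 (0.23). On chromosome 8, 283 of 469 tested genes were called lower and 108 higher. On chromosome 14, 240 of 424 were called higher and 77 lower. MYC and BOP1 lie on chromosome 8. In windows of 10 Mb with at least 10 tested genes, the lowest medians were on chromosome 19 at 20 to 30 Mb (-1.83), chromosome 4 at 40 to 50 Mb (-1.53) and chromosome 7 at 50 to 60 Mb (-1.23). The first of these holds zinc finger genes, such as ZNF43, with 0.0201 CPM in MALME-3M and 10.8 CPM in SK-MEL-5. The last holds VOPP1 and EGFR. Chromosomes 7, 8, 11 and 21 were not shifted as wholes. On chromosome 7 the window medians were -1.23 to -0.25 up to 60 Mb and 0.16 to 0.72 beyond. On chromosome 8 they were 0.14 to 0.36 up to 30 Mb and -0.84 to -0.30 beyond. On chromosome 11 they were 0.15 and 0.18 from 50 to 70 Mb and -1.11 to -0.46 elsewhere. On chromosome 21 the median was -0.63 at 10 to 20 Mb and 0.32 to 0.51 beyond. The highest medians were on chromosome 9 at 20 to 30 Mb, the 9p21 stretch above, and on chromosome 3 at 70 to 80 Mb (1.54) and 60 to 70 Mb (1.53). MITF lies in the latter window and was not called, while PRICKLE2 in the same window was at 83.9 against 2.39 CPM (5.13 ± 0.10). Copy number was not measured.

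Runs of at least 3 neighbouring genes with 3 or fewer counts in 1 line and at least 1 CPM in the other were searched for after the values had been seen. On chromosome 19, neighbouring zinc finger genes were without counts, or nearly so, in MALME-3M, in runs from ZNF529 to ZNF567, ZNF790 to ZNF420, ZNF569 to ZNF573, ZNF667 to ZFP28 and ZNF43 to ZNF257. On chromosome 5 the run of GDNF, LIFR and OSMR with their antisense genes (chr5:37811589-38945596) had 3 or fewer counts each in the same line and stood at 2.22 to 100.6 CPM in SK-MEL-5. LIFR and OSMR are receptors for LIF and oncostatin M. The line with the higher LIF level thus had at most 3 counts of LIFR. A run of GAGE genes on X was also without counts in MALME-3M, or nearly so. Runs in SK-MEL-5 were the 9p21 stretch above, HIST1H3I to HIST1H3J on chromosome 6, and HPN-AS1 to FXYD7 on chromosome 19. The genes of the last stood at 2.18 to 59.7 CPM in MALME-3M.

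Markers of other cell types were summed by library, and their part in the results was not tested. Of 15 keratinocyte markers only KRT10 was tested, and the list summed to 12.96 to 18.5 CPM in MALME-3M and 19.7 to 22.3 CPM in SK-MEL-5. Leukocyte markers summed to 49.2 to 55.4 CPM in MALME-3M and 1.37 to 1.72 CPM in SK-MEL-5. FCER1G, an adaptor chain of Fc receptors, made up nearly all of the MALME-3M sum, at 48.2, 49.1 and 54.5 CPM. PTPRC, the pan-leukocyte CD45, had no count in MALME-3M and was called lower there than in SK-MEL-5. Fibroblast markers summed to 65.5 to 70.6 CPM against 163 to 191 CPM, with LUM at 13.1 against 161 CPM and COL1A2 without a count in SK-MEL-5. Endothelial markers summed to 40.1 to 43.2 CPM against 15.6 to 19.01 CPM, nearly all of it KDR. Schwann cell markers, many of which the melanocyte lineage shares, summed to 1481 to 1592 CPM against 1003 to 1030.0 CPM, with the myelin gene MBP at 688, 651 and 650.2 CPM against 62.3, 65.2 and 58.7 CPM (3.42 ± 0.05).

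The line difference was also measured in the treated libraries, which are separate samples of the same lines. Of 4840 genes called and at least 2-fold different in untreated cells and tested there, 4773 had the same sign and 4538 were also called. The untreated calls came from the fit of all 12 libraries. The treated libraries thus entered its filter and its estimate of spread, and the 2 sets of calls are not fully independent. Among the genes named above, 4 were called in opposite directions in untreated and treated cells. They were HLA-B at 0.65, IRF1 at 0.31, HLA-DRA at 0.87 and RPS14 at -0.32 in treated cells. BST2 differed by 2.99 there and CD274 by 2.28. Treated cells had received different doses of IFN-γ, so the lines and the doses cannot be told apart in those values.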

How the data were processed

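Total RNA was sequenced, and the authors deposited whole-number read counts per gene and, per transcript, estimated counts and TPM, per the file headers. According to the submitters' processing notes the tools were STAR, cutadapt, HTSeq, kallisto and SAMtools and the build was hg38, and the labels name the library kit. Not given in the sources used here were the gene annotation and the strand setting, so reads of overlapping or antisense genes cannot be told apart. The deposited TPM values were not used. The gene tables held 44700 genes, 15830 of them assembled loci. Alignments called not unique amounted in the 6 untreated libraries to 7.47 to 12.3 times the gene counts; these and the other summary lines (no feature, ambiguous at 4.26% to 4.54% of gene counts) were left out. No replicate pair agreed within sampling noise (chi-square 4.84 to 7.35 per gene).

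Counts were fitted in R 4.3.3 with edgeR 4.0.16 (filterByExpr, minimum count 10, TMM, quasi-likelihood test, 1 mean per group over all 12 libraries, 8 residual degrees of freedom, Benjamini-Hochberg adjustment). The SE is the log2 fold change over the square root of F and is too small for genes with few counts. The scripts were tested on simulated data. Treated lines were compared with the same settings in a separate fit of the treated libraries alone. Gene positions came from GENCODE 29 and promoters from RefSeq GRCh38.p14, matched by symbol. Alternatives were DESeq2 1.42.0, other scalings and filters, a test against 2-fold, leaving out each library, and transcript estimated counts, rounded and summed to genes, which tie 51.2% to 55.2% of each untreated library to genes. Named genes were the 12 largest called differences each way of at least 5 CPM, up to 3 called members of each list each way of at least 1 CPM, fixed melanoma and interferon genes, and leading genes of chromosomes and windows; of these a part is printed, and genes named for a motif, a run or their place on 9p were added after values were seen. The comparison and the 49 gene lists were chosen with earlier results of these data known. A few genes and 1 gene list are not reported here and are left out of the plots.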

Additional observations from a re-analysis of the deposited data

How the results depend on the processing

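Counts of called genes stayed within 1.5 times of those reported under the alternatives run, apart from a pair of them. The test against a 2-fold threshold called 1950 genes higher and 2027 lower. Transcript estimated counts, with 12502 genes tested, called 3531 higher and 3591 lower, and 1753 and 1646 at least 2-fold. Leaving out 1 library gave 5229 to 5357 genes higher and 5709 to 5801 lower. No alternative moved the median of all genes by more than 0.1 on the log2 scale. The medians of lists and chromosomes, 52 in number, were also refitted under each alternative. Of the values obtained, 125 moved by more than the SD of that median over pairs of libraries, and 609 did not. In the transcript estimated counts, 2 named genes changed sides, MITF at 0.53 and RPS14 at -0.64. Calls were lost there for CDH2 (1.47), HLA-DMB (0.36), IFI16 (-0.09) and IFNGR2 (0.05), which moved toward 0, for IRF1 (-0.71), which moved little, and for JAK1 (0.29) and KRT10 (-0.62), which moved away from 0. The same counts gave CD200 at 6.49, CSPG4 at 5.98, FCER1G at 7.72, IFI27 at 5.49, LIF at 5.08, NID1 at 9.52, ODC1 at 1.92, PLAUR at 7.10 and THBS2 at 14.76 on the log2 scale. They gave ADAM22 at -4.82, DUSP5 at 1.87, EGFR at -4.03, FBLN1 at -5.19, JAK2 at -1.72, KLHL9 at -6.86, SOX9 at -9.26 and TGFB1 at -2.55. The cause was not tested. No paired analysis was possible because the labels number no replicates, and the numbers used here only name the libraries. Low counts limit genes such as NGFR, AXL and SOX9 in MALME-3M.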
